A study of Homo sapiens with 22 samples.

Results

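The mRNAs of the 10 numbered subunits of the RNA exosome, EXOSC1 to EXOSC10, were followed in 2 human acute myeloid leukemia (AML) cell lines treated with FP54. Members were chosen by name, as the rows with these symbols in the expression tables, and all 10 were present among the 20411 protein-coding genes listed. FP54 is a compound made to have the cell degrade FTO, an enzyme that removes the m6A mark from RNA. Cells labelled wild type, of the lines MOLM-13 and NB4 (the latter derived from the promyelocytic form of the disease), received 2 μM FP54 or the solvent DMSO for 48 hours. RNA-seq of poly(A) RNA gave 3 libraries in each of the 4 groups, and 10 further samples, of m6A-seq and polysome-seq, were not used here. The only control was the solvent, each disease is represented by 1 cultured line, and the labels do not say whether the 3 libraries of a group came from separate cultures, so that p-values measure only the spread between these libraries.

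The RNA exosome is the main machine of eukaryotic cells for degrading and trimming RNA from its 3′ end. A ring of subunits related to an RNA-degrading enzyme of bacteria forms a channel, a cap of RNA-binding subunits sits on its entry, and the catalytic work is done by nucleases attached to this core: EXOSC10 in the nucleus, DIS3, and DIS3L in the cytoplasm. In the nucleus it matures ribosomal RNA and removes by-products of transcription, and in the cytoplasm it takes part in the turnover of mRNA, so every dividing cell uses it, leukemia cells included.

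Values are RPKM, reads scaled by exonic length and by the library total. Reads recovered from them totalled 16542567, 16299701 and 17346913 in MOLM-13 DMSO replicates 1 to 3, and 19191055, 5829730 and 12028681 in MOLM-13 FP54 replicates 1 to 3. In NB4 they totalled 20654055, 21306615 and 22344266 with DMSO and 10595647, 11637314 and 13071303 with FP54. A single subunit rested on 19 to 3582 reads in a MOLM-13 library and on 6 to 4360 in an NB4 library, EXOSC4 being the lowest in both. Depth thus differed between the treatments in NB4, where each FP54 library was shallower than each DMSO library. Myeloid genes marked both lines: CD33 was at 32.3 ± 1.74 RPKM in MOLM-13 and 13.3 ± 0.570 in NB4 with DMSO (SD, n = 3). HOXA9, a homeobox gene high in MOLM-13 at 21.3 ± 2.14 RPKM, was at 0.234 ± 0.0799 in NB4. Of the other listed MOLM-13 markers, FLT3 and MEIS1 were also higher in MOLM-13 with DMSO. HOXA10 was higher in NB4 instead, at 13.2 ± 0.925 RPKM against 7.30 ± 1.01. MPO, the granule enzyme of promyelocytes, stood at 2170 ± 119 RPKM in NB4 against 16.1 ± 2.92 in MOLM-13, whereas ELANE, another granule enzyme listed as an NB4 marker, was near 0 in NB4 at 0.150 ± 0.0627. Markers of other blood cells were low, with a summed level of 3 B cell genes of at most 1.73 RPKM and of 4 erythroid genes of at most 0.205 in any library. The 4 T cell genes summed to 0.265 to 0.614 RPKM in MOLM-13. In NB4 their sum was 6.14, 7.11 and 6.24 RPKM with DMSO and 11.2, 11.5 and 11.7 with FP54. Most of it was CD3D, at 6.35 ± 0.528 RPKM with DMSO and 10.3 ± 0.167 with FP54. CD3G was also higher with FP54, at 0.967 ± 0.156 RPKM against 0.117 ± 0.0302 with DMSO. So was CD3E, at 0.156 ± 0.0477 RPKM against 0.00607 ± 0.0105, while CD2 stayed at or below 0.0574. The sum was thus higher in every treated NB4 library, and its source was not tested.

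FTO mRNA itself was at 1.09, 0.938 and 1.01 RPKM with DMSO and 0.897, 1.00 and 1.13 with FP54 in MOLM-13, with overlapping groups. In NB4 it was at 2.86, 2.52 and 2.81 RPKM with DMSO and 2.11, 1.95 and 2.03 with FP54. The NB4 groups did not overlap, and FTO differed by a log2 fold change of -0.41 (adjusted p = 0.0119, limma with Benjamini-Hochberg adjustment), under the fold minimum used below for calls. The FTO protein, at which FP54 is aimed, was not measured by these files.

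With DMSO alone, EXOSC10 and EXOSC9 were the most abundant of the 10 mRNAs. In MOLM-13 cells with DMSO, EXOSC10 averaged 28.4 ± 0.617 RPKM, EXOSC9 19.7 ± 2.46 and EXOSC5 11.9 ± 3.83 (SD, n = 3), and the ranges of these 3 did not overlap with each other or with those of the rest. EXOSC8, EXOSC2, EXOSC7, EXOSC3 and EXOSC1 followed at 5.92 to 4.48 RPKM, with overlapping ranges between neighbours. EXOSC6 at 2.72 ± 0.514 and EXOSC4 at 1.95 ± 0.476 RPKM came last and overlapped each other, and EXOSC6 also overlapped EXOSC7. In NB4 with DMSO, EXOSC10 at 33.0 ± 1.14, EXOSC9 at 27.1 ± 1.41 and EXOSC7 at 17.9 ± 1.92 RPKM led, again without overlap. EXOSC2, EXOSC6 and EXOSC1 lay together at 11.7 to 10.2 RPKM, and EXOSC5 at 5.77 ± 1.36 overlapped both EXOSC8 at 5.54 ± 0.0136 and EXOSC3 at 4.46 ± 0.422. EXOSC3 lay below EXOSC8 in every library, and EXOSC4 at 0.517 ± 0.0424 stood apart below all others. The tables of the 2 lines were scaled separately, so these levels are set side by side without a test.

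This order depended on the length by which reads are divided. The RPKM values fit the summed length of all annotated exons of a gene, which for EXOSC8 is 13092 bases and 11.2 times the 1166 bases of its MANE Select transcript, the single reference transcript agreed between RefSeq and Ensembl. When the same reads were divided by that length, EXOSC8 moved from place 4 to place 1 of 10 in MOLM-13 DMSO cells. It was then at 66.5 ± 15.5 in the same unit. In NB4 DMSO cells it moved from place 8 to place 4, at 62.2 ± 0.152. Reads on exons outside that transcript were included, so levels by this length are upper bounds. EXOSC6, whose gene is a single exon of 5163 bases, had the same level by both lengths, 2.72 in MOLM-13 and 10.4 in NB4. A total of 6 subunits in MOLM-13 and 7 in NB4 changed place. By the MANE length EXOSC4 and EXOSC6 held the last 2 places in both lines, whereas by RPKM EXOSC3 held place 9 in NB4. For a given gene, the ratio of mean levels between treatments does not depend on this choice. The fits below used RPKM and were not repeated with the MANE length.

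**Figure D1:**
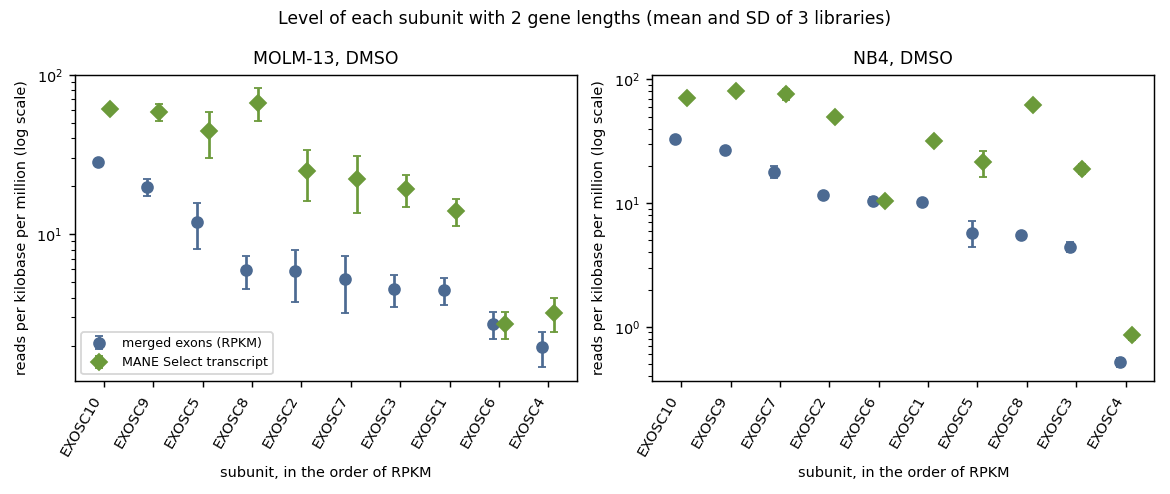
Level of each subunit in DMSO cells of MOLM-13 (left) and NB4 (right), in reads per length and library total on a log axis, as the mean and SD of 3 libraries. Circles use the merged exon length (RPKM) and diamonds the MANE Select transcript length. Both use all reads of the gene, so the diamonds are upper bounds. EXOSC8 moves up most, from 5.92 to 66.5 in MOLM-13 and from 5.54 to 62.2 in NB4, and EXOSC6 does not move.

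The promoters of 3 subunits are shown: those of EXOSC5 and EXOSC10 because they held a searched motif, and that of EXOSC9 as an example without one. EXOSC7 and EXOSC3, called lower in NB4 as EXOSC9 was, also held none and are not printed. Sequences are from RefSeq on GRCh38.p14, where 8 of the 10 subunits matched a promoter entry and EXOSC1 and EXOSC4 did not. Each line gives the 120 bases before the transcription start, 5′ to 3′ on the strand of the gene, with capitals for a searched motif. EXOSC5 lies at chr19:41397360-41397479 on the minus strand, EXOSC9 at chr4:121801203-121801322 on the plus strand and EXOSC10 at chr1:11099870-11099989 on the minus strand.
EXOSC5: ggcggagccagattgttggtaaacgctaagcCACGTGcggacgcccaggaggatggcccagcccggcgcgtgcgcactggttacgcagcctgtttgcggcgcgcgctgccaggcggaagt
EXOSC9: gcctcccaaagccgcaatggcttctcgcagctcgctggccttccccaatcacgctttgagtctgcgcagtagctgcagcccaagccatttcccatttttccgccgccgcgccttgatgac
EXOSC10: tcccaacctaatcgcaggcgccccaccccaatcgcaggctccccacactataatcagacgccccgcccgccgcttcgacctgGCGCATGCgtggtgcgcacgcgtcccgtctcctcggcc
The capitals in EXOSC5 mark the E-box CACGTG, the letters that MYC and related factors bind, which began 89 bases before the start and occurred again at position 15 after it. The capitals in EXOSC10 mark GCGCATGC, the core of the motif of NRF1, a factor of housekeeping promoters, beginning 38 bases before the start. Windows of 300 bases, from 250 before to 50 after the start, were searched on both strands. CACGTG was found in 1 of the 8 subunits and in 7.26% of all 35116 promoters, GCGCATGC in 1 of 8 and in 3.05%. The ETS motif CCGGAAGT (4.14% of all promoters) and the E2F motif TTTCCCGC (1.63%) were found in none of the 8. These motifs share no letters that would make 1 match count under another, and a match describes the sequence only.

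In MOLM-13, the 1 subunit that passed the test was EXOSC5, whose mRNA fell with FP54 to 45.4% of its DMSO level. Among the others EXOSC9 was lower in every FP54 library without passing, and EXOSC10, the most abundant, had a log2 fold change of 0.06. Calls required an unadjusted p under 0.01 in limma together with a change of 0.5 or more on the log2 scale, up or down, over 9710 genes with a mean of at least 1 RPKM. Fold changes are on the log2(RPKM + 0.1) scale, which understates changes of low genes. All 10 subunits passed the filter on low values. By this rule 9.04% of all genes were called lower and 9.30% higher, so that 1 of 10 subunits called lower and 0 called higher is near the background. At an adjusted p below 0.05 the counts were again 1 lower and 0 higher, beside 9.32% and 9.84% of all genes, and by that rule 0 were lower without a filter and without DMSO replicate 1, DMSO replicate 3 or FP54 replicate 1, 2 without FP54 replicate 2 or FP54 replicate 3, and 3 without DMSO replicate 2, where the share of all genes lower ran from 2.19% to 13.5%. At an unadjusted p under 0.05 alone, 4 were lower and 0 higher, beside 17.4% and 17.6% of all genes. By voom on recovered reads, 2 were called lower and 0 higher, beside 9.73% and 10.4%. The groups of 3 did not overlap, with FP54 lower, for 2 of the 10 (EXOSC5 and EXOSC9) and for 17.0% of all genes, and for none with FP54 higher, against 20.2% of all genes. The fitted change was negative for 8 of 10, with a median of -0.31 on the log2 scale beside 0.0033 over all genes tested. That median was -0.19 without DMSO replicate 1 and -0.53 without DMSO replicate 2. The count of subunits called lower was 0 without FP54 replicate 1 (5.01% of all genes), 2 without FP54 replicate 2 (8.75%) or FP54 replicate 3 (10.3%), and 3 without DMSO replicate 2 (12.6%), so the background moved with the library left out as well.

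In NB4, 4 subunits were called lower and none higher, against 10.7% and 18.6% of the 9853 genes tested. The 4 were the ring subunits EXOSC7, EXOSC5 and EXOSC9 and the cap subunit EXOSC3, which stood at 60.4% to 70.5% of their DMSO levels. EXOSC10, EXOSC6 and EXOSC2 also fell at an adjusted p below 0.05 but by less than 0.5 on the log2 scale, which made 7 of 9 lower and 0 higher by that rule, beside 22.0% and 29.8% of all genes. That count of 7 was 5 to 7 when 1 library was left out (17.8% to 26.0% of all genes) and 6 with the replicate number as a block (21.4%). The same 7 had no overlap between the groups with FP54 lower (26.2% of all genes), and EXOSC1 alone had none with FP54 higher (34.3% of all genes). At an unadjusted p under 0.05 the counts were also 7 lower and 0 higher, beside 24.7% and 33.3% of all genes, and voom called 3 lower and 0 higher, beside 10.4% and 19.4%. EXOSC4, at a mean below 1 RPKM, was not tested with the others. The median log2 fold change of the 9 was -0.44 beside 0.07 over all genes tested. Without FP54 replicate 1 the calls fell to 1 (EXOSC7), and without DMSO replicate 2 to EXOSC7 and EXOSC3, with 10.1% and 10.2% of all genes called lower. With median-ratio scaling in place of the deposited scaling, the median of all genes moved by -0.20 and that of the subunits to -0.64, whereas the subunits' median relative to all genes was -0.51 under both and -0.40 under quantile normalization. Median-ratio scaling called 6 subunits lower, beside 20.4% of all genes. Over all genes it called 2009 lower and 1184 higher, where the deposited scaling gave 1050 and 1834. Olfactory receptor genes, silent in blood cells, averaged 0.00168 to 0.00372 RPKM over 416 genes in the NB4 DMSO libraries and 0.0496 to 0.0549 in the FP54 libraries. The part of this shift in the results was not tested, but its highest value was 1.86% of the lowest value of any tested subunit with FP54 and 14.2% of the lowest EXOSC4 value. In bulk RNA relative to the library total, less mRNA of a gene per cell and more RNA of other genes cannot be told apart, nor can fewer cells of a kind and less RNA in each.

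**Figure D2:**
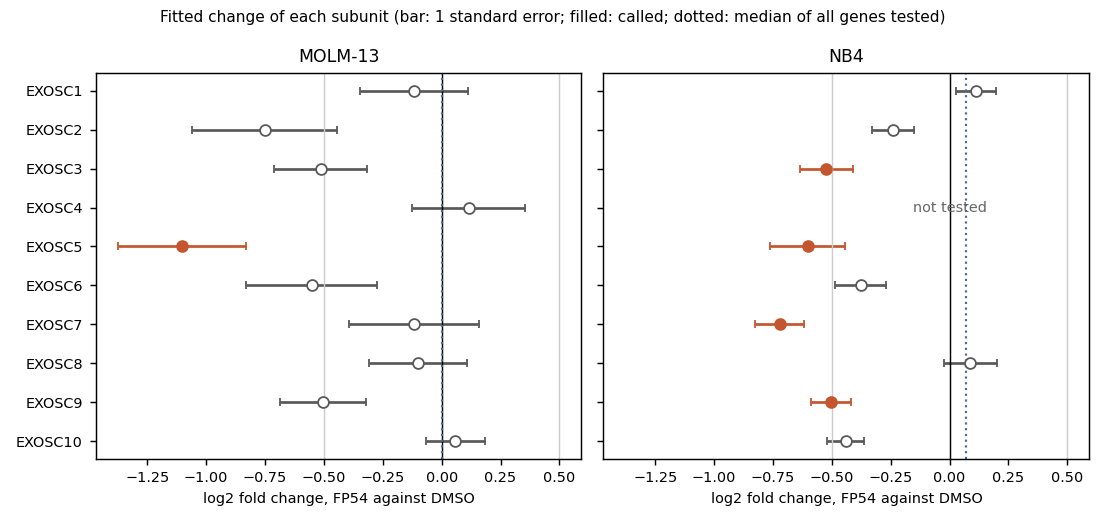
Fitted log2 fold change of each subunit, FP54 against DMSO, in MOLM-13 (left) and NB4 (right), from limma on log2(RPKM + 0.1) with 3 libraries per treatment. Bars are 1 standard error, filled points were called, grey lines mark the minimum of 0.5, and dotted lines are the median of all genes tested. EXOSC5 at -1.10 is the only filled point in MOLM-13, and EXOSC7, EXOSC5, EXOSC3 and EXOSC9 at -0.72 to -0.50 are the 4 in NB4.

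The cap subunits bind RNA at the entry of the channel and hold the ring together. EXOSC3 (chr9:37759234-37832117 in hg38, minus strand) was at 5.32, 3.37 and 4.88 RPKM with DMSO and 3.07, 2.82 and 3.38 with FP54 in MOLM-13. DMSO replicate 2 overlapped the treated libraries, and the difference of -0.51 ± 0.20 (log2, SE) did not pass (adjusted p = 0.0939, limma with Benjamini-Hochberg adjustment), although it was called with quantile normalization (-0.53) and without that control (-0.71). In NB4, EXOSC3 was at 3.99, 4.57 and 4.81 RPKM with DMSO and 2.96, 2.98 and 3.25 with FP54. Each NB4 library with FP54 was lower than each with DMSO, by -0.52 ± 0.11 (adjusted p = 0.00286 in limma). The change was under 0.5 with a pseudocount of 1 (-0.42) and without DMSO replicate 3 (-0.47) or FP54 replicate 1 (-0.50 when rounded). On the opposite strand TRMT10B shares 5.9% of the exonic length of EXOSC3, and its own log2 fold change was 0.38 in MOLM-13 and 0.59 in NB4.

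EXOSC2 (chr9:130693721-130707288, plus strand), another cap subunit, was at 6.79, 3.47 and 7.30 RPKM with DMSO and 2.22, 3.63 and 4.30 with FP54 in MOLM-13. DMSO replicate 2 again lay among the treated libraries, and the difference of -0.75 ± 0.31 did not pass (adjusted p = 0.110, limma). It was -1.09 without that control, a call, and -0.48 without FP54 replicate 1. In NB4, EXOSC2 was at 11.8, 12.2 and 11.1 RPKM with DMSO and 9.99, 10.2 and 9.40 with FP54. The NB4 groups stood apart, with a smaller difference of -0.24 ± 0.088 (adjusted p = 0.0409, limma), which no longer passed without DMSO replicate 1 or without any 1 of the FP54 libraries (adjusted p = 0.0733 to 0.164), nor with the replicate block (0.0570). EXOSC1 (chr10:97435909-97446017, minus strand), the remaining cap subunit, overlapped between groups in MOLM-13, at 3.58 to 5.31 RPKM with DMSO and 2.92 to 4.93 with FP54. In NB4 it was at 9.93, 10.4 and 10.3 RPKM with DMSO and 10.9, 11.7 and 10.6 with FP54. EXOSC1 was thus the 1 subunit higher in all treated NB4 libraries, although its log2 fold change of 0.11 did not pass (adjusted p = 0.298, limma) and was -0.085 under median-ratio scaling.

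The ring is built of 3 pairs of partners, which carry the fold of an RNA-degrading enzyme but are inactive in human cells. EXOSC5 (chr19:41386371-41397362, minus strand), partner of EXOSC8, was at 14.5, 7.47 and 13.6 RPKM with DMSO and 3.76, 6.10 and 6.29 with FP54 in MOLM-13. All treated libraries lay below all controls, though DMSO replicate 2 was nearer to the treated ones than to its own group. The log2 fold change was -1.10 ± 0.27 (adjusted p = 0.0219, limma with Benjamini-Hochberg adjustment) and became -0.87 once FP54 replicate 1 was left out (adjusted p = 0.103), which ends the call. In NB4, EXOSC5 was at 4.71, 7.30 and 5.29 RPKM with DMSO and 3.25, 4.12 and 3.77 with FP54. The NB4 groups did not overlap, the highest control being replicate 2, and the difference was -0.60 ± 0.16 (adjusted p = 0.00935, limma). The NB4 call was lost without DMSO replicate 2 (-0.42) or FP54 replicate 1 (-0.51). EXOSC8 (chr13:36998816-37025881, plus strand) ranged from 4.39 to 7.07 RPKM with DMSO and from 4.57 to 6.56 with FP54 in MOLM-13. In NB4 it was at 5.52, 5.54 and 5.55 RPKM with DMSO and 5.04, 6.40 and 6.35 with FP54. EXOSC8 overlapped between treatments in both lines, and its log2 fold changes were -0.10 ± 0.21 and 0.09 ± 0.11, the NB4 value turning to -0.11 under median-ratio scaling and to -0.058 under quantile normalization. SUPT20H, on the opposite strand, shares 16.3% of the exonic length of EXOSC8 and changed by 0.26 in MOLM-13 and 0.15 in NB4 (log2).

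EXOSC9 (chr4:121801318-121817021, plus strand), the second most abundant subunit by RPKM and partner of EXOSC4, was at 19.7, 17.2 and 22.2 RPKM with DMSO and 10.9, 17.1 and 14.1 with FP54 in MOLM-13. DMSO replicate 2 and FP54 replicate 2 all but touched, and the difference of -0.50 ± 0.18 did not pass (adjusted p = 0.0788, limma). EXOSC9 was called there by voom (-0.54, adjusted p = 0.0455) and by limma without FP54 replicate 2 (-0.66, adjusted p = 0.0294), and had -0.33 without FP54 replicate 1. In NB4 it was at 26.7, 28.7 and 25.9 RPKM with DMSO and 18.1, 19.3 and 19.9 with FP54. There the groups were well apart, with a log2 fold change of -0.50 ± 0.084 (adjusted p = 0.000646, limma), just past the minimum of 0.5. It fell under that minimum with a pseudocount of 1 (-0.48), quantile normalization (-0.43) or voom (-0.50 when rounded), and without DMSO replicate 2 (-0.46) or FP54 replicate 1 (-0.46). Its neighbour CCNA2, a cyclin gene on the opposite strand that shares 5.4% of the exonic length of EXOSC9, moved alike, by -0.57 in MOLM-13 and -0.58 in NB4. Whether reads were counted by strand is not stated, and the part of CCNA2 in the EXOSC9 values was not tested. EXOSC4, on chromosome 8, had 1.96, 1.46 and 2.41 RPKM with DMSO and 1.58, 2.35 and 2.40 with FP54 in MOLM-13, from 58 reads at most. In NB4 it had 0.559, 0.474 and 0.517 RPKM with DMSO and 0.409, 0.558 and 0.386 with FP54, from 6 to 16 reads. The groups overlapped in both lines, with log2 fold changes of 0.12 ± 0.24 in MOLM-13 and, without a filter, -0.17 ± 0.18 in NB4 (adjusted p = 0.435, limma). A same-strand gene model, ENSG00000290230, covers 56.7% of the exonic length of EXOSC4 and had at most 0.0360 RPKM in any library; how reads shared by both were counted is not stated, so the low EXOSC4 level is uncertain.

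EXOSC7 (chr3:44975241-45036066, plus strand), partner of EXOSC6, had the largest fitted fall of the subunits in NB4, except under quantile normalization, where EXOSC5 (-0.79) and EXOSC3 (-0.75) fell further. Its NB4 values were 16.0, 19.8 and 17.9 RPKM with DMSO and 9.91 to 11.5 with FP54. The groups were far apart, by -0.72 ± 0.10 on the log2 scale (adjusted p = 0.00026 in limma). In MOLM-13, at a lower level, it was at 7.02, 2.98 and 5.74 RPKM with DMSO and 3.98, 5.11 and 4.62 with FP54. The MOLM-13 controls spanned the treated libraries on both sides, with a difference of -0.12 ± 0.28. The lectin gene CLEC3B shares 13.6% of the exonic length of EXOSC7 on the same strand, but was at 0.344 RPKM or less in every library. EXOSC6 (chr16:70246778-70251940, minus strand) was at 2.21 to 3.24 RPKM with DMSO and at 1.37, 1.46 and 2.88 with FP54 in MOLM-13, where FP54 replicate 3 lay among the controls. The difference there was -0.55 ± 0.28 (adjusted p = 0.185, limma), and -0.88 (adjusted p = 0.0293), a call, without that library. In NB4, EXOSC6 was at 9.87, 11.3 and 10.1 RPKM with DMSO and 7.35, 7.62 and 9.07 with FP54. These groups did not overlap, and the difference was -0.38 ± 0.11 (adjusted p = 0.0134, limma), not past the adjusted p without FP54 replicate 1 (0.0639) or FP54 replicate 2 (0.0633). Under median-ratio scaling it was -0.58 (adjusted p = 0.00113, limma), a call, where 20.4% of all genes were called lower.

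EXOSC10 (chr1:11066618-11099869, minus strand) is the 3′-5′ exonuclease of the nuclear exosome. In MOLM-13 it was at 27.7, 28.8 and 28.7 RPKM with DMSO and 31.2, 29.8 and 27.7 with FP54. The groups overlapped, with a log2 fold change of 0.06 ± 0.13. In NB4 it was at 33.0, 34.2 and 31.9 RPKM with DMSO and 25.5, 23.7 and 23.7 with FP54. Every treated NB4 library was below every control, by -0.44 ± 0.080 (adjusted p = 0.00106, limma). Under median-ratio scaling the NB4 difference was -0.64 (adjusted p = 0.000145, limma), a call, where 20.4% of all genes were called lower.

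**Figure D3:**
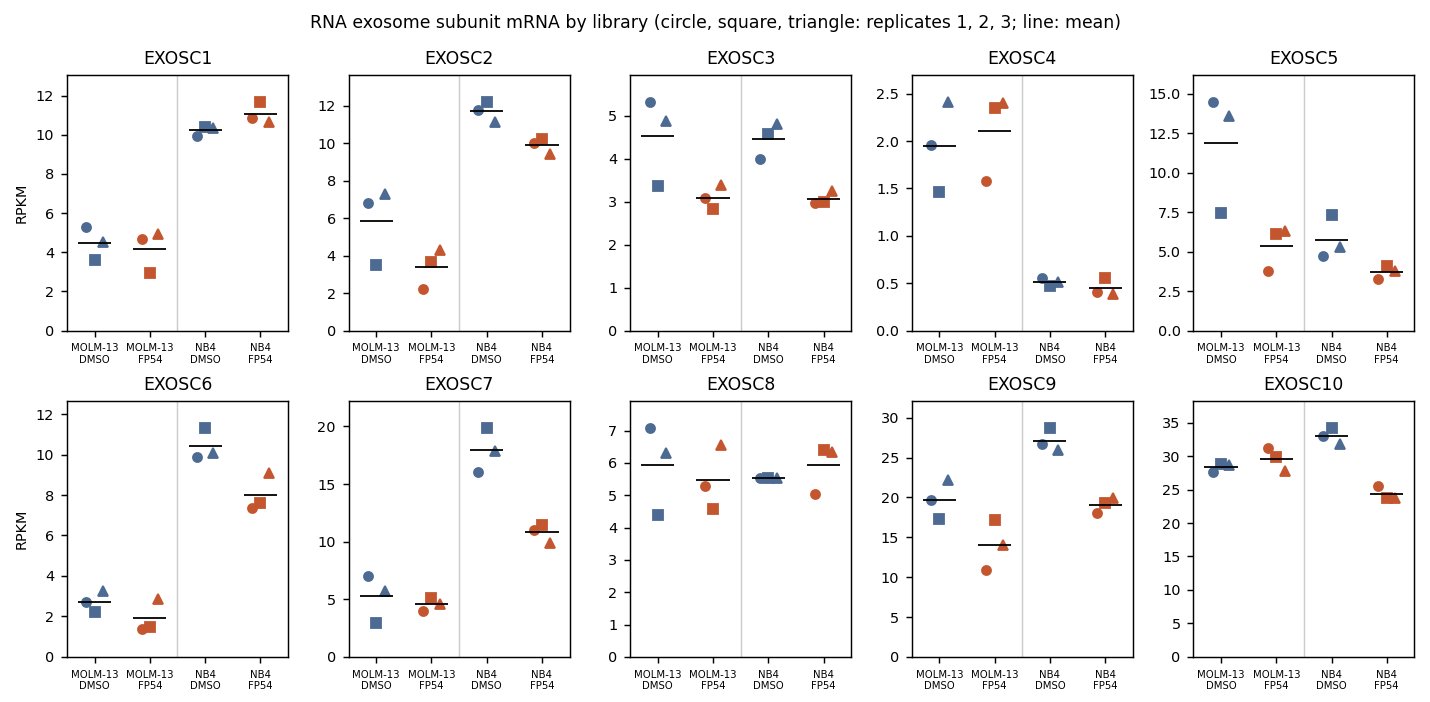
RPKM of each subunit in the 12 libraries, 1 panel per gene with its own axis from 0, for DMSO (blue) and FP54 (orange) in MOLM-13 and NB4. Circles, squares and triangles are replicates 1, 2 and 3, and lines are means. EXOSC5 separates by treatment in both lines, while EXOSC10 overlaps in MOLM-13 and separates in NB4, at 23.7 to 25.5 with FP54 and 31.9 to 34.2 with DMSO.

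The difference between the lines was tested itself, as an interaction over the 8849 genes tested in both. For EXOSC10 the FP54 effect in NB4 minus that in MOLM-13 was -0.50 ± 0.14 on the log2 scale (adjusted p = 0.0234, limma with Benjamini-Hochberg adjustment). It was the only 1 of the 9 subunits past an adjusted p of 0.05, where 14.2% of all genes were. Leaving out MOLM-13 DMSO replicate 1, NB4 FP54 replicate 2 or NB4 FP54 replicate 3 ended this call (adjusted p = 0.0567, 0.0728 and 0.0716 in limma), and leaving out MOLM-13 DMSO replicate 2 added EXOSC2 (difference 0.85, adjusted p = 0.0467). With the replicate number as a block the adjusted p was 0.0776 (limma), which no longer passed. The difference of EXOSC7, -0.60 ± 0.32, did not pass (adjusted p = 0.238, limma) and ran from -0.85 without MOLM-13 DMSO replicate 1 to -0.25 without MOLM-13 DMSO replicate 2. For EXOSC5, called in both lines, the effect was 0.50 ± 0.35 less negative in NB4, also not past the threshold (adjusted p = 0.376, limma), with 0.27 without MOLM-13 FP54 replicate 1 and 0.80 without MOLM-13 DMSO replicate 2. In the main fit EXOSC3 and EXOSC9 had nearly equal fitted changes in both lines, with differences of -0.01 ± 0.23 and 0.0009 ± 0.21. Under the other alternatives with all libraries these differences reached -0.25 and -0.17.

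In MOLM-13, 1 control library stood apart from the others over the subunits as a group. After centring each gene on its own mean in the line, the 10 averaged 0.37, -0.21 and 0.37 (log2) in DMSO replicates 1 to 3 and -0.38, -0.19 and 0.03 in FP54 replicates 1 to 3. DMSO replicate 2 thus lay with the treated libraries, with 8 of 10 subunits below their line mean. Without it, 3 subunits were called lower in MOLM-13 in place of 1, EXOSC2 at -1.09 and EXOSC3 at -0.71 joining EXOSC5, and the median was -0.53, while the share of all genes called lower was 12.6% in place of 9.04%. In NB4 the averages were 0.11, 0.25 and 0.15 with DMSO and -0.23, -0.11 and -0.17 with FP54, so that the treatments separated cleanly. MYC, the growth-promoting transcription factor, was looked at after its values were seen: it was at 56.5, 13.8 and 40.2 RPKM with DMSO and 5.91, 11.8 and 18.8 with FP54 in MOLM-13. MOLM-13 DMSO replicate 2 lay among the treated libraries for MYC as well. In NB4, MYC was at 132.9, 142.2 and 124.5 RPKM with DMSO and 75.8, 67.9 and 65.0 with FP54, without overlap. The part of MYC in the subunits' values was not tested.

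**Figure D4:**
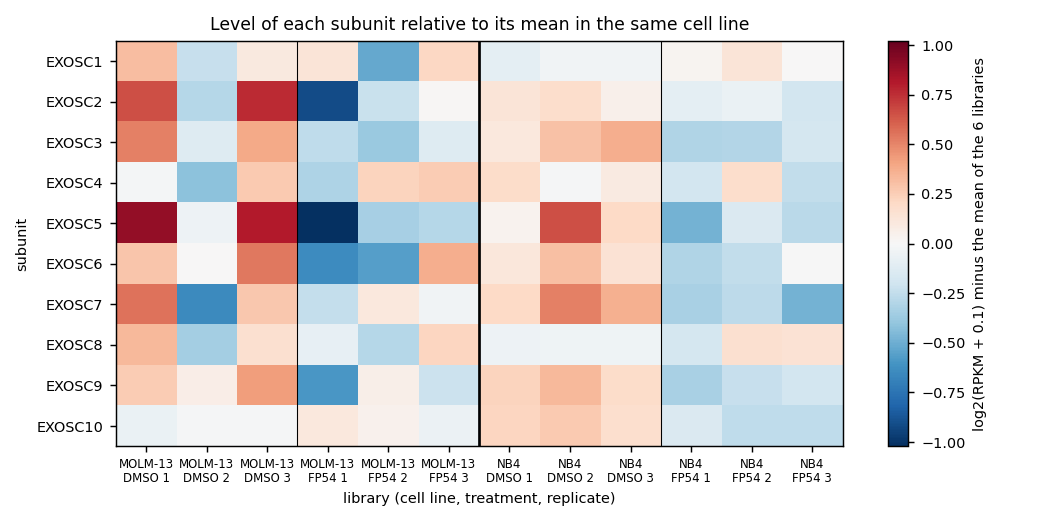
Level of each subunit (rows) in each of the 12 libraries (columns) as log2(RPKM + 0.1) minus the mean of the 6 libraries of the line; red is above and blue below that mean. MOLM-13 DMSO replicate 2 is mostly blue, at a mean of -0.21 over the 10 subunits, unlike the other MOLM-13 controls at 0.37. In NB4 the 3 controls are mostly red and the 3 treated libraries mostly blue.

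Relative to each other, some subunits took a different share of the total with FP54. The 10 mRNAs summed to 90.6 ± 13.6 RPKM with DMSO and 73.7 ± 4.99 with FP54 in MOLM-13, and to 126.6 ± 6.79 and 96.3 ± 1.74 in NB4 (SD, n = 3). In MOLM-13 the share of EXOSC5 in this sum was 12.8% ± 2.54 with DMSO and 7.24% ± 1.48 with FP54, without overlap, whereas that of EXOSC10 was 31.9% ± 5.66 and 40.4% ± 5.04, with overlapping ranges. In NB4, where EXOSC10 kept a share of 26.1% ± 0.859 and 25.2% ± 1.55, the share of EXOSC1 was 8.08% ± 0.330 with DMSO and 11.5% ± 0.433 with FP54, and that of EXOSC7 was 14.1% ± 0.885 and 11.2% ± 0.817, both without overlap. The NB4 shares of EXOSC8 (4.38% ± 0.225 and 6.15% ± 0.708) and EXOSC2 (9.23% ± 0.349 and 10.2% ± 0.441) were likewise higher with FP54 without overlap, and that of EXOSC9 (21.4% ± 0.422 and 19.8% ± 0.788) lower. These shares depend on the length used: by the MANE length EXOSC10 took 19.8% ± 4.47 with DMSO and 25.4% ± 3.61 with FP54 in MOLM-13, EXOSC5 13.7% ± 2.14 and 7.88% ± 1.58, still without overlap, and the EXOSC2 shares in NB4 overlapped, whereas those of EXOSC3, which overlapped by RPKM, were lower with FP54 without overlap in both lines.

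Within the ring, the ratio of EXOSC5 to its partner EXOSC8 was lower with FP54 in both lines. In MOLM-13 it was 2.05, 1.70 and 2.16 with DMSO and 0.712, 1.33 and 0.959 with FP54. In NB4 it was 0.853, 1.32 and 0.954 with DMSO and 0.646, 0.644 and 0.594 with FP54. The groups did not overlap in either line, and the log2 ratios differed by -1.02 and -0.70. Each gave p = 0.1 in a two-sided exact permutation test, the smallest that 3 libraries against 3 allow, and 0.15 after Benjamini-Hochberg adjustment over the 6 ratios tested. The ratio of EXOSC4 to EXOSC9 was higher with FP54 in MOLM-13, at 0.145, 0.137 and 0.170 against 0.0996, 0.0848 and 0.109 (difference 0.63, exact p = 0.1). In NB4 it overlapped, at 0.0226, 0.0290 and 0.0194 against 0.0209, 0.0165 and 0.0199 (0.29, exact p = 0.3). The ratio of EXOSC6 to EXOSC7 was higher with FP54 in NB4, at 0.666, 0.664 and 0.915 against 0.617, 0.570 and 0.563 (0.34, exact p = 0.1), and overlapped in MOLM-13 with a difference of the other sign (-0.46, exact p = 0.3).

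**Figure D5:**
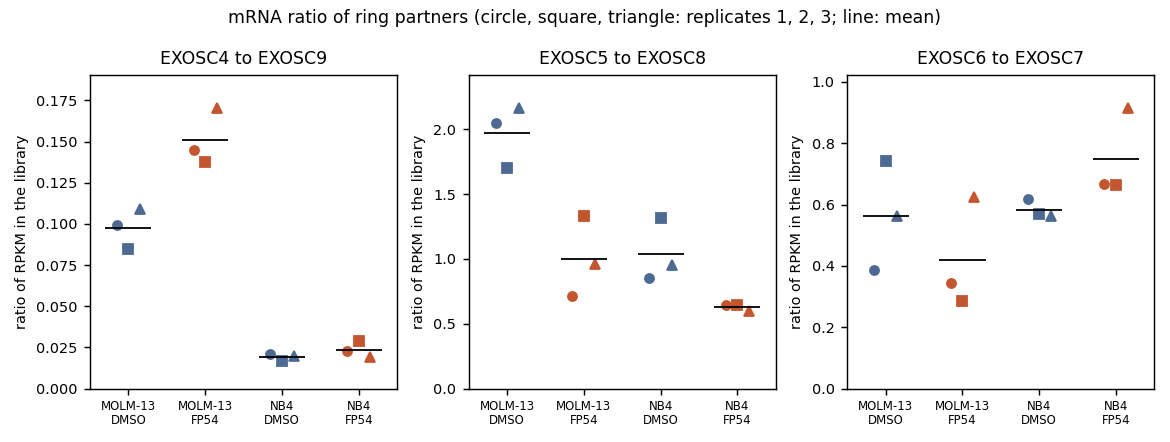
Ratio of RPKM between ring partners in each library, for EXOSC4 to EXOSC9, EXOSC5 to EXOSC8 and EXOSC6 to EXOSC7, with axes from 0. Circles, squares and triangles are replicates 1, 2 and 3, and lines are means. The EXOSC5 to EXOSC8 ratio is 0.712 to 1.33 with FP54 and 1.70 to 2.16 with DMSO in MOLM-13, and 0.594 to 0.646 and 0.853 to 1.32 in NB4.

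Genes of the proteins that work with the exosome in the nucleus were examined next, and the counts of this list and of those that follow are to be read against the shares of all genes above: 9.04% called lower and 9.30% higher in MOLM-13, and 10.7% and 18.6% in NB4. With an unadjusted p under 0.05 these shares were 17.4% and 17.6% in MOLM-13 and 24.7% and 33.3% in NB4, and by voom 9.73% and 10.4%, and 10.4% and 19.4%. Median-ratio scaling, which called 20.4% of all NB4 genes lower, raised the NB4 counts called lower from 1 to 5 of the nuclear cofactors, from 4 to 7 of the genes of 5′-3′ decay and from 2 to 4 of the other exonucleases described below. When 1 library was left out, the counts called lower ran from 0 to 3 for the nuclear cofactors and for the other exonucleases in MOLM-13, and from 1 to 2 and from 1 to 3 in NB4. In those fits 4.86% to 12.6% of all genes were called lower in MOLM-13 and 10.1% to 11.3% in NB4. Of 18 nuclear cofactors tested, 2 were called lower and 0 higher in MOLM-13 and 1 lower and 0 higher in NB4, with medians of -0.27 and -0.11 (log2). MPHOSPH6, an exosome-bound protein needed to mature ribosomal RNA, was called in both lines: it averaged 24.7 ± 6.24 RPKM with DMSO and 12.4 ± 3.65 with FP54 in MOLM-13 (50.3% of the DMSO level, adjusted p = 0.0231, limma). In NB4 it averaged 40.1 ± 1.54 and 24.8 ± 3.11 RPKM (-0.70, adjusted p = 0.000267, limma). SRRT, which links the exosome to capped nuclear RNA, was called in MOLM-13 (-0.85, adjusted p = 0.0350, limma), and in NB4 it had -0.20 (adjusted p = 0.0798). The catalytic subunit DIS3 had -0.14 in MOLM-13 and 0.06 in NB4, and the helicase MTREX, which feeds RNA to the nuclear exosome, had -0.30 in both, which passed the adjusted p in NB4 alone (0.0403, limma). By the adjusted p, 2 of 18 were lower and 0 higher in MOLM-13 (all genes 9.32% and 9.84%), and 5 lower and 1 higher in NB4 (22.0% and 29.8%). With an unadjusted p under 0.05 the counts were 8 lower and 0 higher in MOLM-13 and 7 lower and 4 higher in NB4, and voom called 3 and 1 lower, none higher. The calls lower in MOLM-13 depended on FP54 replicate 1: without it those of MPHOSPH6 (-0.74) and SRRT (-0.65), and of LSM7 (-0.68), REXO2 (-0.63) and PNPT1 (-1.05) described below, did not pass (adjusted p = 0.0960 to 0.162, limma). All but that of MPHOSPH6 were also lost without DMSO replicate 3. The SRRT call was also lost without a filter, without FP54 replicate 3 and without DMSO replicate 2. Its log2 changes were then -0.85, -0.76 and -0.92 (unadjusted p = 0.0129, 0.0191 and 0.01001, limma). The NB4 call of MPHOSPH6 was lost when a log2 change of at least 1 was required, and under no other alternative.

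Of the 6 cytoplasmic cofactors, none was called in MOLM-13 (median -0.19). In NB4 1 was called higher and none lower (median -0.14): TTC37, also known as SKIC3, the scaffold of the complex that threads mRNA into the exosome, rose from 2.75 ± 0.686 to 4.19 ± 0.289 RPKM (0.61, adjusted p = 0.00859, limma). This call was lost with a pseudocount of 1 (0.48), median-ratio scaling (0.42) or quantile normalization (0.37), and without DMSO replicate 2, DMSO replicate 3, FP54 replicate 1 or FP54 replicate 3. TTC37 was not among the genes tested by voom or with the filter at 5 RPKM. By the deposited scaling no list member was called lower in NB4, beside 10.7% of all genes. With median-ratio scaling 2 were called lower there (20.4% of all genes), and 1 with quantile normalization (13.8%). At an unadjusted p under 0.05 no cytoplasmic cofactor was lower or higher in MOLM-13, by limma, and voom called none, while 2 were lower and 1 higher in NB4. DIS3L, the cytoplasmic nuclease, had -0.22 in MOLM-13 and -0.39 in NB4, the latter past the adjusted p (0.0129, limma) but not called.

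Decay from the other end of the RNA was also examined. Of 19 genes of decapping and 5′-3′ decay, 1 was called lower and 0 higher in MOLM-13 and 4 lower and 1 higher in NB4, with medians of -0.09 and -0.18. Leaving out MOLM-13 DMSO replicate 2 gave 4 lower and 1 higher there (12.6% and 9.49% of all genes). The replicate block gave 2 lower in MOLM-13 (9.06% of all genes). None was lower in MOLM-13 without DMSO replicate 1 (5.72% of all genes), DMSO replicate 3 (4.86%) or FP54 replicate 1 (5.01%). At an unadjusted p under 0.05, 3 were lower and 0 higher in MOLM-13 and 8 lower and 4 higher in NB4, and voom called 2 lower and 0 higher in MOLM-13. By the adjusted p, 1 was lower and 0 higher in MOLM-13, beside 9.32% and 9.84% of all genes. In NB4, 7 were lower and 4 higher by that rule, beside 22.0% and 29.8%. The genes called lower were LSM genes, whose proteins form a ring that binds RNA after loss of its tail or, in another composition, the U6 RNA of splicing. Of the 8 LSM genes of the list, 1 was called lower in MOLM-13 and 4 in NB4, while LSM4 had -0.15 and LSM8 0.46 in NB4, the latter at an adjusted p of 0.00326 (limma) but under the fold minimum. The LSM genes were not a list of their own, and their counts were not tested. LSM7 was called in both lines, at -0.81 in MOLM-13 (adjusted p = 0.0386, limma) and -0.50 in NB4 (adjusted p = 0.00412). In MOLM-13 the LSM7 call was also lost without a filter (still -0.81) and without DMSO replicate 1 (-0.65). In NB4 it was lost with a pseudocount of 1, quantile normalization or voom and without DMSO replicate 2 or FP54 replicate 1. LSM6 at -0.82, LSM3 at -0.72 and LSM5 at -0.59 were called in NB4, with adjusted p of 3.58e-05, 4.8e-05 and 0.000335 in limma, LSM5 falling under the fold minimum with quantile normalization (-0.47). XRN1, the cytoplasmic 5′-3′ exonuclease, went the other way in NB4, from 3.26 ± 0.974 to 5.90 ± 0.476 RPKM (0.88, adjusted p = 0.00268, limma). LSM8, the subunit of the nuclear form of the ring, and ZFC3H1, a nuclear cofactor, were the 2 genes, of 66 tested in these lists, with a different FP54 effect in the 2 lines, higher in NB4 by 0.82 and 0.77 (adjusted p = 0.0171 and 0.0363, limma), beside 14.2% of all genes.

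Of 14 deadenylase genes, which shorten poly(A) tails, PAN2 was the single call in each line and was higher, from 12.6 ± 1.81 to 21.5 ± 2.56 RPKM in MOLM-13 (0.77, adjusted p = 0.0108, limma). In NB4, PAN2 went from 6.56 ± 0.538 to 13.4 ± 0.503 RPKM (1.02, adjusted p = 1.36e-05, limma). No deadenylase gene was called lower by limma in either line with the deposited scaling and all libraries, where 2 in MOLM-13 and 1 in NB4 were lower, and as many higher, at an unadjusted p under 0.05 and voom called 1 and 0 lower. In MOLM-13, 2 were called lower with median-ratio scaling (9.96% of all genes), 1 with quantile normalization (9.62%) and 2 without FP54 replicate 3 (10.3%), and in NB4 1 with median-ratio scaling (20.4%). The PAN2 call in MOLM-13 held without FP54 replicate 1 (0.68), though its adjusted p was then 0.0580 (limma). The medians of the list were -0.08 and -0.06. Of 9 other 3′-5′ exonucleases tested out of 10, 2 were called lower and 0 higher in each line, with medians of -0.28 and -0.29. At an unadjusted p under 0.05, 3 were lower in MOLM-13 and 5 in NB4, none higher, and voom also called 2 lower and 0 higher in each line. REXO2, a mitochondrial enzyme that clears very short RNAs, was called in both, at -0.76 (adjusted p = 0.0243, limma) and -0.53 (adjusted p = 0.000752). The MOLM-13 call of REXO2 was also lost without DMSO replicate 1, and its NB4 call with a pseudocount of 1 or without FP54 replicate 1. PNPT1, the mitochondrial relative of the exosome ring, was called in MOLM-13 (-1.43, adjusted p = 0.0264, limma) and had -0.49 in NB4, just under the minimum of 0.5. Its MOLM-13 call was also lost without a filter, where the log2 change was still -1.43 (unadjusted p = 0.01005, limma). With the filter at 5 RPKM, PNPT1 and REXO2 were not among the genes tested in MOLM-13. TOE1, a nuclear exonuclease that matures small nuclear RNAs, was called in NB4 (-0.68, adjusted p = 0.000187, limma) and had -0.74 in MOLM-13 without a call.

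Across the 12 libraries, the 5 genes whose centred profile lay nearest to the mean profile of the 10 subunits were TMX2, PRPF19, SAAL1, ERCC2 and TFB1M, among 8840 genes compared. Their root mean square distances were 0.060, 0.070, 0.071, 0.073 and 0.074 on the log2 scale. Picked as the smallest distances, they necessarily lay below the median of 0.32 over all genes compared. The distances of the subunits themselves ran from 0.129 for EXOSC3 to 0.326 for EXOSC5. None of the 5 was called in either line. PRPF19, a splicing factor, for example averaged 34.3 RPKM with DMSO and 24.7 with FP54 in MOLM-13 (-0.45) and 80.6 and 59.6 in NB4 (-0.43). EXOSC5 was thus about as far from the subunits' mean profile as a typical gene, and EXOSC3 was the subunit closest to it.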

How the data were processed

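Of 22 samples, the 12 mRNA-seq libraries of both lines were analysed. According to the study's methods and notes, the authors selected poly(A) RNA, trimmed reads with cutadapt 4.8, removed duplicates with Clumpify, aligned to hg38 with STAR 2.7.11b and counted GENCODE release 42 genes with featureCounts 2.0.3. The deposited values are RPKM made by the authors, 1 table per line, and the line of each table rests on its name. Multiplying them by merged exon lengths of GENCODE release 44, found for 20329 of 20411 genes, gave whole reads (within 0.05) for 98.5% to 99.1% of values under 100 reads, from which depth was taken.

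In R 4.3.3, log2(RPKM + 0.1) of genes with a mean of at least 1 RPKM over the 6 libraries of a line was fitted with limma 3.58.1 (eBayes with a trend), FP54 against DMSO, without a block, and over both lines for the interaction. Calls needed p under 0.01 with a log2 change of 0.5 or more. Benjamini-Hochberg adjusted p-values cover all genes tested. Ratios of partners were compared by exact permutation. Python 3.11.15 was used otherwise. The fits were tested on simulated data.

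Alternatives were other pseudocounts (1 and 0.01), filters, cutoffs, scalings and eBayes settings, voom on recovered reads, a replicate block and leaving out each library. The MANE Select length was added after seeing the data. Subunits and lists were chosen with earlier results of these data known. Named genes were the subunits, FTO, up to 4 called genes with the smallest p per decay list, direction and line, and the 5 nearest profiles. Others, such as DIS3, MTREX, DIS3L, LSM8, ZFC3H1, neighbouring genes and MYC, were named outside this rule.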

Additional observations from a re-analysis of the deposited data

Results flagged for a closer look

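EXOSC10 was flagged because its response to FP54 differed between the cell lines by a direct test: the log2 effect in NB4 minus that in MOLM-13 was -0.50 ± 0.14 (adjusted p = 0.0234, limma interaction with Benjamini-Hochberg adjustment). It was lower in 3 of 3 treated NB4 libraries than in any NB4 control, and overlapped between treatments in MOLM-13. The call was lost without MOLM-13 DMSO replicate 1, NB4 FP54 replicate 2 or NB4 FP54 replicate 3 (adjusted p = 0.0567, 0.0728 and 0.0716, limma) and with the replicate number as a block (0.0776).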

How the results depend on the processing

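In MOLM-13, 1 subunit was called lower, beside 9.04% of all genes. The count was 2 under quantile normalization (9.62% of all genes) and 2 by voom on recovered reads (9.73%). Leaving out 1 library gave 0 (without FP54 replicate 1) to 3 (without DMSO replicate 2) and 2 without FP54 replicate 2 or 3, while the count over all genes ran from 472 to 1222 against 878. In NB4, 4 subunits were called lower, beside 10.7% of all genes. The count was 7 at an adjusted p below 0.05 with no minimum fold, beside 22.0%. It was 0 at p below 0.05 with a log2 change of 1, where 138 of 9853 genes were lower. It was 2 with a pseudocount of 1 (8.75%) and 2 with a filter at 5 RPKM (13.1%), which left EXOSC3 and EXOSC5 untested. Leaving out 1 library gave 1 (without FP54 replicate 1) to 4, with 2 without DMSO replicate 2. In those NB4 fits 10.1% to 11.3% of all genes were called lower. Under median-ratio scaling the NB4 median was -0.64, with 6 called lower, as were 20.4% of all genes.

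The single subunit with a different effect in the lines stood beside 14.2% of all genes (1258 of 8849). With the replicate block the count became 0, where EXOSC10 kept -0.50 at an adjusted p of 0.0776 (limma). Leaving out 1 library gave 0 to 2 subunits. Over all genes the count ran from 819 to 1488 when 1 library was left out and from 633 to 3964 under the other alternatives. The replicate block left 1 subunit called lower in MOLM-13 (9.06% of all genes) and 4 in NB4 (10.7%). By the adjusted p it left 6 in place of 7 NB4 subunits lower (21.4% of all genes), without EXOSC2 (0.0570, limma). Same-numbered libraries correlated at -0.26, -0.13 and -0.06 in MOLM-13 and -0.14, 0.07 and 0.12 in NB4 over their deviations from group means, so the numbers were not taken as pairs. Differently numbered libraries ran from -0.46 to 0.59 in MOLM-13 and from -0.26 to 0.22 in NB4. The MOLM-13 correlation was 0.593 for DMSO 1 with FP54 3, 0.494 for DMSO 2 with FP54 1 and 0.475 for DMSO 3 with FP54 2. A block by these matches was not fitted. With the MANE Select length, 6 subunits in MOLM-13 and 7 in NB4 changed place.

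Small changes turned sign, and their cause was not tested. In NB4, EXOSC1 became -0.085 under median-ratio scaling, and EXOSC8 became -0.11 there and -0.058 under quantile normalization. In MOLM-13, leaving out 1 library moved EXOSC1 from -0.27 to 0.11, EXOSC4 from -0.066 to 0.30, EXOSC7 from -0.47 to 0.13 and EXOSC8 from -0.30 to 0.040. The difference between the lines moved from -0.0012 to 0.38 for EXOSC1, -0.14 to 0.18 for EXOSC3, -0.0097 to 0.50 for EXOSC6 and -0.17 to 0.16 for EXOSC9, which was also -0.0071 with a pseudocount of 1 and -0.17 with median-ratio scaling. With 6 to 58 reads, EXOSC4 rested on the fewest reads of the subunits.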
